A study of Mus musculus with 35 samples.

Results

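The Tdpoz tandem family is a set of related genes side by side on mouse chromosome 3, and the account below covers 5 listed copies, Tdpoz1 to Tdpoz5, out of 21887 protein-coding genes. The copies were taken by symbol from RefSeq's annotation of GRCm38.p6, the same assembly as mm10. The peaks were those on chromosome 3 with a summit between 93 and 94 Mb, which gave 173 of the 59485 peaks in the deposited list. Of these summits, 3 lay inside a listed copy and 170 outside, so most of the data on this locus concern the sequence between the copies. The window's first summit, at 93068814, had a fold enrichment of 2.09, and its last, at 93999420, had 2.45. The nearest summits beyond the window lay at 92598225 (fold 2.04) and 94001053 (fold 1.95).

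The study asked how NELFA, 1 of the subunits of the NELF complex that holds RNA polymerase II close to promoters, relates to the 2-cell-like state of mouse embryonic stem cells. Of its 35 libraries, 7 were ChIP-seq libraries from E14 cells grown with serum, LIF and 2i and given doxycycline at 0.4 µg/ml for 16 h, which induced a transgene of NELFA with a Strep-HA tag and a GFP reporter. There were 4 libraries precipitated with HA antibodies (3 with antibody 1 and 1 with antibody 2) and 3 inputs, numbered as 3 replicates. The 7 libraries are represented by 1 peak list with no column per library, so its values have no replicate error, no read depth and no test here, and no RNA-seq or ATAC-seq library was used here. Every ChIP library, the inputs included, carried the transgene and had received doxycycline, and no uninduced or untagged sample stood beside them. A peak list holds no expression values, so the embryonic stem cell label could not be checked against marker genes.

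TD-POZ proteins carry a TRAF (MATH) domain and a BTB/POZ domain and resemble SPOP, the adaptor that brings substrates to the CUL3 ubiquitin ligase. Their genes are known for transcripts in the oocyte and the early embryo, and several are widely used as markers of 2-cell-like cells in culture. The family arose by tandem duplication, and where copies share sequence, reads from one can align equally well to another. No source used here says how reads with several matches were treated. All 173 peak names in the window hold the tag MAPQ0, which no such source explains. The tag was not counted outside the window, so it cannot be called particular to this locus. The part of read placement in any result below was not tested.

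The copies run along rising coordinates in the order Tdpoz2 (chr3:93651542-93652686), Tdpoz1 (chr3:93669333-93676283), Tdpoz4 (chr3:93796398-93797510), Tdpoz3 (chr3:93826020-93827117) and Tdpoz5 (chr3:93960292-93961314). Tdpoz1 is annotated over 6951 bp, and the other 4 over 1023 to 1145 bp. From the first base of Tdpoz2 to the last of Tdpoz5 the array spans 309.8 kb.

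Promoter sequences, from 250 bases before to 50 after an annotated start, were matched in RefSeq (GRCm38.p6) for 3 of the 5 listed copies, and also for the relatives Tdpoz7, Tdpoz8 and Tdpoz9. All but that of Tdpoz7 are shown, because Tdpoz1 and Tdpoz9, almost the same in sequence, differed in whether a peak was listed there. In other pairs with almost the same sequence, Tdpoz4 and a second start of Tdpoz8 both had a peak, and Tdpoz5 and Tdpoz7 had none. All are read 5′ to 3′ along the gene, and capitals mark the bases that lie inside a deposited peak interval.
Tdpoz1 (chr3:93676234-93676533, minus strand): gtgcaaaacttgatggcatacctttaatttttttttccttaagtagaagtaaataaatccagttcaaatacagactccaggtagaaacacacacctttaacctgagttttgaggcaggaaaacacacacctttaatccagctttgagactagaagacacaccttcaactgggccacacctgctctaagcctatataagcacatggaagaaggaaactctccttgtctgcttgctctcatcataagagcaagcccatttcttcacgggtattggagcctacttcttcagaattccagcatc
Tdpoz9 (chr3:94054836-94055135, minus strand): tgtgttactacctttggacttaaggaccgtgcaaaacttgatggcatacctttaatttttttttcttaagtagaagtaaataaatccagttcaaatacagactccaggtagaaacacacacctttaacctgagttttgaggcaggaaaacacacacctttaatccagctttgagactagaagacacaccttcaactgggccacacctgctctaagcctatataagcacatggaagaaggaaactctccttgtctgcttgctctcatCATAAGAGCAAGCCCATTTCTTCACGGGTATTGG
Tdpoz8, first start (chr3:93068573-93068872, plus strand): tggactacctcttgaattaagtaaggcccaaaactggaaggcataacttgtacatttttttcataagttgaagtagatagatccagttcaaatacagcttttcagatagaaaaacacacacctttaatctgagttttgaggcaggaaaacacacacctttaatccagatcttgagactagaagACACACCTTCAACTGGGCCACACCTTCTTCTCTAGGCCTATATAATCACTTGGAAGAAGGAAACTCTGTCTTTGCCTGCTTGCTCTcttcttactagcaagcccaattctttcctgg
Tdpoz4 (chr3:93796148-93796447, plus strand): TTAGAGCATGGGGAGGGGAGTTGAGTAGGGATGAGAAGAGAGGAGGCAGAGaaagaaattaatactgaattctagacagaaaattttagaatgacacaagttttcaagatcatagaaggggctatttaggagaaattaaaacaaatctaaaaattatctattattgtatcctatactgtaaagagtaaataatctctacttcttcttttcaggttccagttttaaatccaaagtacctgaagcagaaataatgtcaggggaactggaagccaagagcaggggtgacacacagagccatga
Tdpoz8, second start (chr3:93073271-93073570, plus strand): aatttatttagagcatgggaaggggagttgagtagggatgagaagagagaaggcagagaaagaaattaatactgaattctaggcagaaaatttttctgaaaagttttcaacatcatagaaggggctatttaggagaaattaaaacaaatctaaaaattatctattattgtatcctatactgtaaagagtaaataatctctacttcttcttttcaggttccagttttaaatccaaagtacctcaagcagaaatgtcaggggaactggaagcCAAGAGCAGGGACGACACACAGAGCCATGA
Tdpoz5 (chr3:93961265-93961564, minus strand): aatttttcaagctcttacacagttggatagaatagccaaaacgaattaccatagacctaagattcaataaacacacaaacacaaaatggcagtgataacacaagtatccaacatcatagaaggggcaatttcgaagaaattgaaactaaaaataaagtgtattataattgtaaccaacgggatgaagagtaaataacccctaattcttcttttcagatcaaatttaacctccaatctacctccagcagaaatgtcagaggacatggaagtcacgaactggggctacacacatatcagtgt

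The promoters of Tdpoz1 and Tdpoz9 were identical at all 272 aligned bases, with a gap of a single base, but only Tdpoz9 had a listed peak at its start. At Tdpoz9 a peak of fold 2.09 covered the last 34 bases of the promoter, with its summit 138 bp into the gene. The same 34 bases stand without change in the Tdpoz1 promoter, where no base lay in a peak. The summit nearest to the Tdpoz1 start was 14.8 kb downstream, beyond the other end of the gene. Whether such a pair differs in occupancy or in how reads were assigned was not tested.

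Tdpoz8 carried a peak at each of its annotated starts, and both had a fold of 2.09. The summit at the first start lay 9 bp upstream of it, and the interval covered 86 bases of that promoter, which was 89.7% identical to the promoter of Tdpoz1 over 263 aligned bases. The summit at the second start lay 127 bp downstream. The Tdpoz4 promoter matched this second Tdpoz8 promoter at 284 of 293 aligned bases (96.9%). At Tdpoz4 the capitals fall on the first 51 bases, the edge of a peak with its summit 330 bp upstream of the start. At the second start of Tdpoz8 they fall on the last 30. Within the printed sequences the peaks in this pair were therefore on opposite sides of the annotated start. Beyond them, a further interval at Tdpoz4, chr3:93796717-93799313 (fold 3.68), began inside the gene, downstream of its start.

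Tdpoz5 and Tdpoz7 differed by 1 base in 300 (G179A, with Tdpoz5 first and positions counted from 1 at the 5′ end of the Tdpoz5 promoter), and neither had a peak in its gene or within 1 kb. Their nearest summits were 13.2 and 10.7 kb from the start, both downstream. The TATA-like word TATATAA, searched on both strands (TTATATA on the other), occurred at the first start of Tdpoz8 and at Tdpoz1 and Tdpoz9, with its first base 29, 60 and 33 bases before the start. It was in neither orientation at Tdpoz4, Tdpoz5, Tdpoz7 or the second Tdpoz8 start. Of all 32851 promoters in the table, 3.24% held it. The 7 family promoters held 0 to 4 CpG dinucleotides each, where the median promoter held 7 and 38% held 4 or fewer. At Tdpoz4, Tdpoz5, Tdpoz7 and the second Tdpoz8 start, the annotated start falls on an ATG. That second start also lies inside the Tdpoz8 gene. Whether transcription begins at these places was not tested. Their lack of TATATAA and their CpG counts may therefore not describe promoters. Likewise, the annotated lengths and boundaries of Tdpoz4, Tdpoz5 and Tdpoz7, used in the counts below, may not be those of their transcripts.

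Tdpoz2, Tdpoz4 and Tdpoz3 had a summit within 1 kb of an annotated boundary, which is 3 of the 5 copies, and Tdpoz1 and Tdpoz5 had none. Among all protein-coding genes 18.8% had such a summit, and among the 4677 genes with lengths in the range of the copies 17.8% did. A summit lay inside the gene at Tdpoz2 and Tdpoz3 only, 2 of the 5 copies, against 29.4% of all protein-coding genes and 16.3% of those of like length. The copies are neighbours with shared sequence and do not count as independent genes, so these shares are a description. The strongest boundary folds of the 3 copies had a median of 3.18, and those of the 4121 protein-coding genes with a boundary summit had a median of 2.22.

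Fold enrichment is the linear ratio that the authors' peak caller gave each peak, used here to describe and rank peaks. In the window all 173 folds were whole multiples of a single step of 0.0454, to within 0.01 of a step, as were 98.1% of the folds in the list. Each of the 1320 distinct folds in the list came with 1 value of −log10 p. Among the window's peaks the −log10 q never fell as the fold rose, so within the window fold and significance give the same ranking and are not separate measures. Such multiples arise when the peaks share a single denominator, and how the inputs entered it is stated in no source used here. With a shared denominator, folds in the window differ only in their numerators. Whether the input signal varies along the array was not tested.

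Tdpoz2 had the weakest peaks among the copies that had any. Its 3 peaks had folds of 1.91, 2.0 and 1.82, all below the list's median of 2.09. The first lay 889 bp below the gene, and the others inside it, at 412 and 152 bp from its higher-coordinate end. These inner intervals, of 243 and 59 bp, covered 26.4% of the gene. A stronger peak of fold 2.5 lay 1316 bp above that end, outside the 1 kb limit.

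Tdpoz4 sat among wide and stronger peaks but had no summit inside it. The peak upstream of its start, chr3:93795802-93796198, had a fold of 3.22 and a −log10 q of 14.0. A further interval upstream, chr3:93794442-93795699, reached 4.4, with its summit 1093 bp from the gene. The interval over the gene itself was 1 that covered 71.3% of it and ran past its 3′ end, where the summit of fold 3.68 lay 1042 bp beyond the gene. The count of boundary summits leaves out both of these.

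Tdpoz3 was the only listed copy that lay wholly under a peak. The interval chr3:93825888-93827861, 1974 bp wide, covered all 1098 bp of the gene, at a fold of 3.18, and its summit was 91 bp inside the lower-coordinate end. Just below it stood the strongest and widest peak of the whole window, chr3:93820584-93825768, of fold 6.35 and 5185 bp. That interval ended 252 bp short of Tdpoz3, while its summit lay 5118 bp from the gene, near the far end of the interval. In the whole list 137 peaks were at least as wide.

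Tdpoz1 and Tdpoz5 stood in gaps. The nearest summit to Tdpoz1 was 7845 bp below it (fold 2.22), and on the higher side 39117 bp separated the gene from the next (fold 2.72). For Tdpoz5 the distances were 12198 bp below (fold 2.04) and 21696 bp above (fold 1.95). The gap on the higher side of Tdpoz1 holds the pseudogenes Gm9107 and Gm18433, also without a peak.

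**Figure D1:**
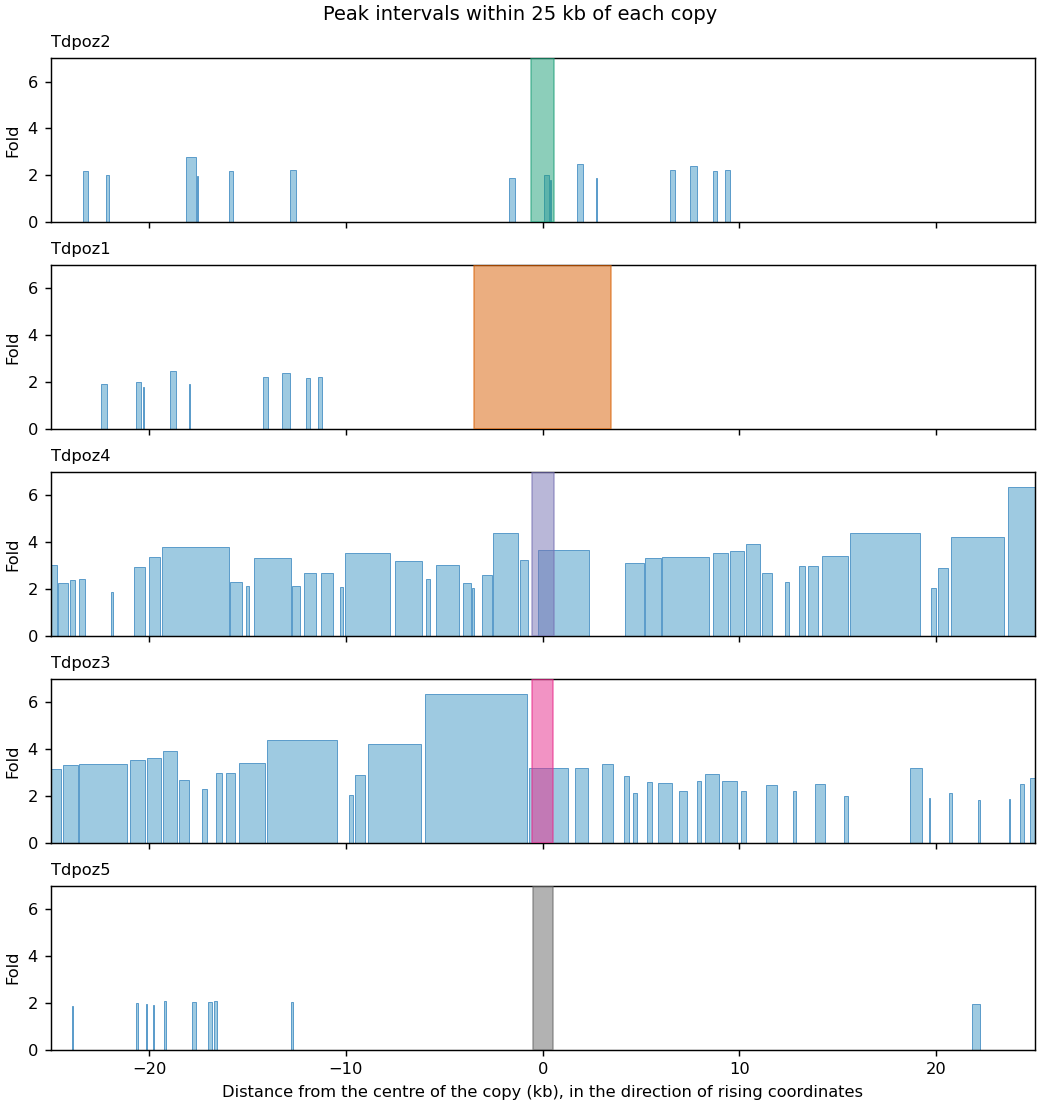
Peak intervals within 25 kb of the centre of each listed copy, in kb along rising coordinates, with the height of each bar giving fold enrichment and its width the interval; the coloured band is the gene. Intervals cover 81.8% of the bases between Tdpoz4 and Tdpoz3, with the fold of 6.35 just below Tdpoz3, and are sparser above Tdpoz3. Tdpoz2 has narrow intervals near a fold of 2, and Tdpoz1 and Tdpoz5 have none in the gene.

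The surroundings of the copies differed as much as the copies. Within 25 kb outside the gene there were 41 summits around Tdpoz4 and 38 around Tdpoz3, against 13 around Tdpoz2, 10 around Tdpoz5 and 9 around Tdpoz1. Over all protein-coding genes the median was 0 and the 95th percentile 8. The median fold of these flanking peaks was 3.0 at Tdpoz4 and 2.72 at Tdpoz3, and 2.18, 2.02 and 2.18 at Tdpoz2, Tdpoz5 and Tdpoz1. Neighbouring copies share flanks: Tdpoz4 and Tdpoz3 are 28.5 kb apart, and Tdpoz2 and Tdpoz1 16.6 kb, so many of these summits count for both members of a pair.

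Between the copies, peaks were densest from Tdpoz4 to Tdpoz3. In those 28.5 kb there were 17 summits, 5.96 per 10 kb, with a median fold of 3.36, and peak intervals covered 81.8% of the bases. Of the 17, 11 had a fold of at least 3. The 120.1 kb from Tdpoz1 to Tdpoz4 held 46 summits (3.83 per 10 kb, 25.2% covered, median fold 2.56), and the 133.2 kb from Tdpoz3 to Tdpoz5 held 58 (4.36 per 10 kb, 17.4% covered, median fold 2.25). From Tdpoz2 to Tdpoz1 there were 6 summits in 16.6 kb, none above a fold of 2.5. The remaining 38.7 kb above Tdpoz5 held 11 summits with a median fold of 2.18. The 651.5 kb below Tdpoz2 held 32 summits, 0.491 per 10 kb, with 1.14% covered, but they were unevenly placed. The 50 kb next to Tdpoz2 held 13 of them (2.6 per 10 kb, with folds of 1.91 to 2.77), all between 93611450 and 93650653, and the 601.5 kb farther down held 19 (0.316 per 10 kb). The peaks thus went on past the listed copies at this end.

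**Figure D2:**
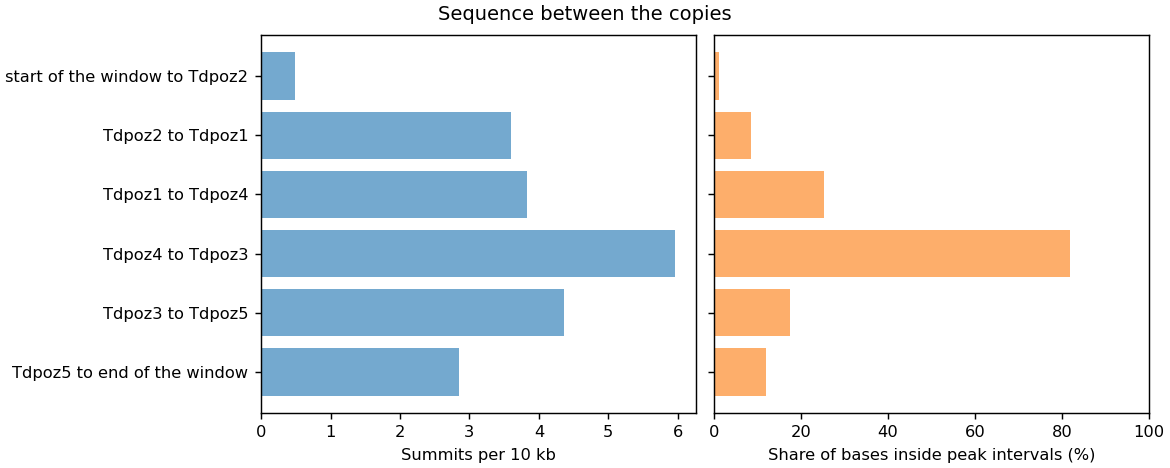
Summits per 10 kb (left) and share of bases inside peak intervals in percent (right) for each stretch between neighbouring listed copies and for both ends of the window. The stretch from Tdpoz4 to Tdpoz3 is highest on both scales, at 5.96 summits per 10 kb and 81.8%.

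The density of summits inside the listed copies against that between them depended on Tdpoz1. Inside the 5 genes there were 0.265 summits per kb and between them 0.426, a ratio of 0.622. Tdpoz1, with no summit, makes up 6.95 of the 11.3 kb inside genes, and without it the 3 summits in 4.38 kb gave 0.685 per kb and a ratio of 1.61. No direction can be read from so few summits. With each gene extended by 1 kb on both sides the count inside rose to 5 and the ratio was 0.54. With only peaks of −log10 q of at least 4 a single summit remained inside, and the ratio was 0.293.

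A single run of 69 peaks, each under 2 kb from the next, reached over 81.6 kb from 93760467 to 93842097 and contained Tdpoz4 and Tdpoz3. Tdpoz4 began 35931 bp into it, and Tdpoz3 ended 14980 bp before its close. Peak intervals filled 72.6% of the run. Of 29497 runs on the assembled chromosomes, single peaks included, 26 had at least as many peaks, this one among them. With a spacing of 1 kb the longest run had 28 peaks over 35.8 kb and held only Tdpoz3 of the listed copies. With 5 kb it had 104 peaks over 138.1 kb and held Tdpoz4 and Tdpoz3. The 2 kb spacing was chosen with these data in view.

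Peaks in the run were stronger and wider than those elsewhere in the window. Their median fold was 2.86 and their median width 523 bp, against 2.18 and 213 bp for the other 104 peaks and 2.09 and 170 bp in the whole list. A fold of at least 3 was given to 29 of the 69 (42%), to 11 of the 104 (10.6%) and to 14.2% of the list. Of the 23 window peaks that were 1 kb or wider (13.3%, against 4.33% of the list), 17 belonged to the run. The run was itself picked for closely spaced peaks, so no test was made of these differences.

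**Figure D3:**
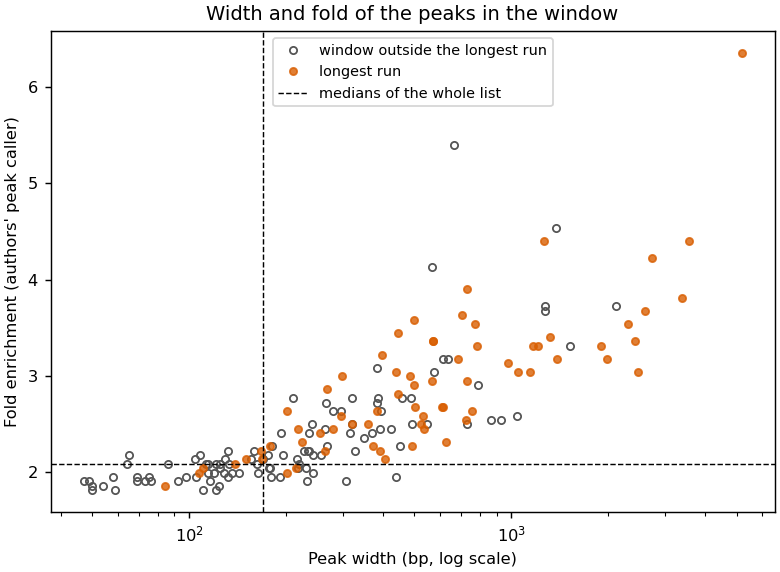
Width of each of the 173 window peaks in bp (log scale) against its fold enrichment, with peaks of the longest run filled and the others open; dashed lines are the medians of the whole list, 170 bp and 2.09. Most of the widest peaks belong to the run, with the peak of 5185 bp and fold 6.35 at the upper right.

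Shorter runs lay at other places in the array. A run of 13 peaks from 93863691 to 93879382, between Tdpoz3 and Tdpoz5, contained the pseudogene Gm9113 and reached a fold of 3.72. A run of 12 peaks began at 93990660, above Tdpoz5, and crossed the upper edge of the window to 94002566. Its first peak had a fold of 4.54. The run at Tdpoz2 had 5 peaks, and 1872 runs of the list had as many or more.

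The 5 strongest peaks of the window were spread over these places. After the fold of 6.35 below Tdpoz3 came one of 5.4 in Flg2, a filaggrin-family gene of the epidermis 438.1 kb below Tdpoz2. The third was the peak of 4.54 at 29.6 kb from Tdpoz5. The peak 1093 bp from Tdpoz4 and one 12.6 kb from Tdpoz3 (chr3:93812566-93816119) both had 4.4. Except for the one in Flg2, their summits lay in no annotated gene.

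**Figure D4:**
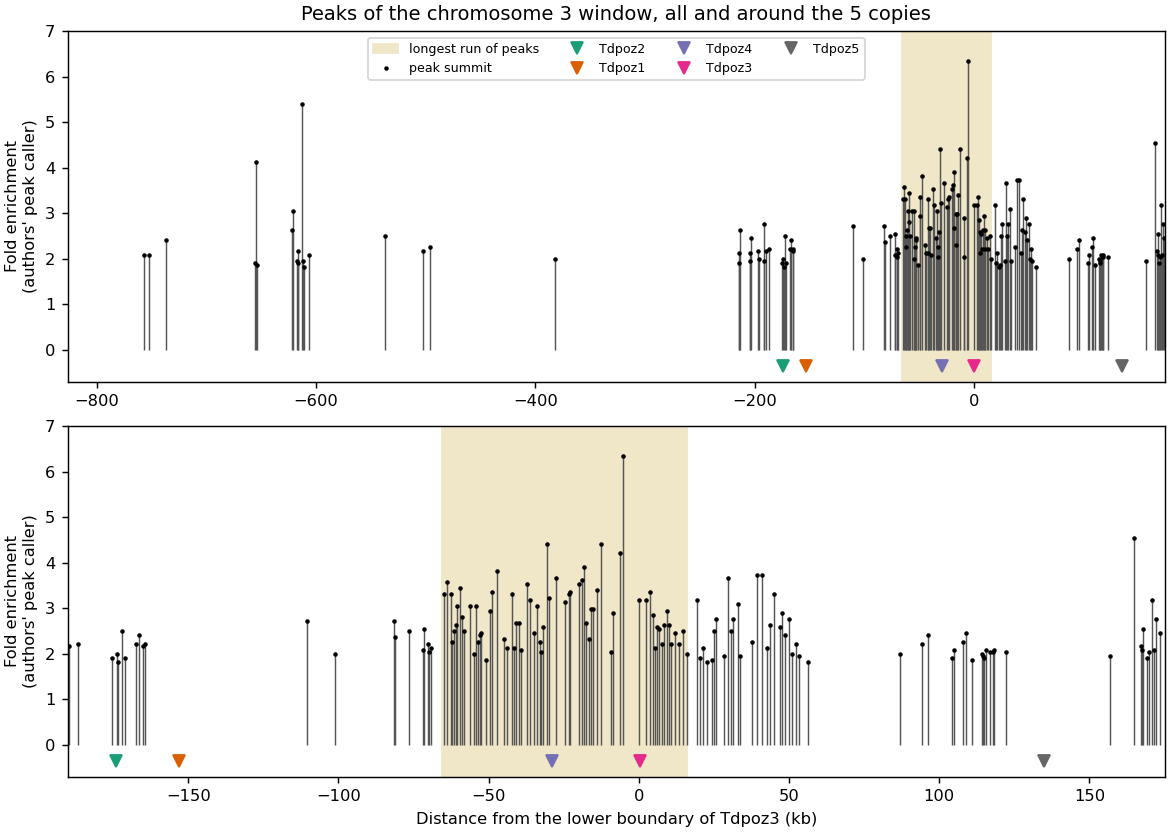
Fold enrichment of each peak in the window against the distance of its summit from the lower-coordinate boundary of Tdpoz3 in kb, over the whole window (top) and around the copies (bottom); triangles mark the copies and the shaded band the longest run. Tdpoz4 and Tdpoz3 stand inside the band, Tdpoz1 and Tdpoz5 in gaps, and the region below Tdpoz2 holds a group just below that copy and another with the fold of 5.4.

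The window as a whole held far more peaks than most of the genome. Among 2732 windows of 1 Mb the median was 11 peaks, and 41 windows (1.5%) held 173 or more. On chromosome 3, with a median of 10 over 160 windows, it had the highest count, and the next highest window held 94. It accounted for 7.88% of the 2195 peaks on that chromosome. Its neighbours from 92 to 93 Mb and from 94 to 95 Mb held 94 and 84.

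The window also holds 31 other annotated genes, of which 17 are pseudogenes, 2 lncRNA genes and 12 protein-coding, Tdpoz8 and several genes of the skin barrier among them. Of the 11 protein-coding genes that are not Tdpoz copies, none had a summit within 1 kb of a boundary. Flg2 held 9 summits in its interior, the hornerin gene Hrnr 2, and Flg and Tchh, which encode filaggrin and trichohyalin, 1 each with folds of 2.5 and 2.0. The S100 family genes S100a10 and S100a11, closest to the array, had none. Of the 17 pseudogenes, 5 had a boundary summit, against 6.93% of the 9944 pseudogenes in the annotation, namely Gm5541 (2.18), Gm5773 (2.45), Gm9113 (2.9), Gm9117 (2.09) and Gm9121 (1.95). Gm5773 lies within the longest run.

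The family goes on beyond the listed copies, and these relatives were picked after their values had been seen, apart from Tdpoz8. Tdpoz9 (chr3:94047981-94054885) had 5 peaks in or within 1 kb of the gene with folds of 2.0 to 2.27, while Tdpoz1, of nearly the same annotated length, had none. Spopfm2, annotated as protein-coding, had 2 peaks with folds of 2.41 and 2.63. The pseudogenes Spopfm3 and Spopfm1 had 6 and 2, the strongest at 2.72 and 2.0. None of these relatives reached the boundary folds of Tdpoz4 (3.22) and Tdpoz3 (3.18). The listed copy Tdpoz2 reached only 2.0. Tdpoz8 (2.09), Tdpoz9 (2.27), Spopfm2 (2.63) and Spopfm3 (2.72) were above that, and Spopfm1 was level with it. Tdpoz7, like the listed Tdpoz1 and Tdpoz5, had no peak in the gene or within 1 kb.

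Of 24 genes for SPOP, its relatives, the CUL3 ligase and other MATH or BTB adaptors, 10 had a boundary summit (41.7%, against the 18.8% of protein-coding genes given above), with a median strongest fold of 2.2. These were the scaffold gene Cul3 (1.91), the RING subunit gene Rbx1 (2.27), the exchange factor gene Cand1 (2.04), the adaptor genes Keap1 and Klhl12 (2.31 each) and Traf1 (1.91). The deubiquitinase gene Usp7 (1.95) and the neddylation genes Nae1 (2.22), Uba3 (2.18) and Ube2m (2.27) completed them. Spop and Spopl, the single-copy genes closest in kind to the Tdpoz copies, had no peak in the gene or within 1 kb. The list of 24 was chosen with earlier results of these data known, so its 41.7% is a description and was not tested. Over all protein-coding genes with a boundary summit the median strongest fold was 2.22.

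Set beside other tandem families of the 2-cell programme, the span of the 5 listed copies had more summits per length. There were 4.2 summits per 10 kb from Tdpoz2 to Tdpoz5, 1.32 across the 6 Zscan4 genes and 1.82 across the 51 genes and pseudogenes named Obox, with median folds of 2.5, 2.2 and 2.18. A boundary summit was found at 3 of 5, 6 of 6 and 16 of 51, against 18.8% of all protein-coding genes and 6.93% of all pseudogenes. The strongest boundary folds were 3.22, 3.54 and 3.9, and a maximum tends to rise with the number of members. The member sets are unlike, since the Tdpoz span left out Tdpoz7, Tdpoz8 and Tdpoz9, while Obox took in every gene and pseudogene so named. The stretch of the window below Tdpoz2, where Tdpoz8 lies, held 0.491 summits per 10 kb. A span that took in Tdpoz8 would therefore hold fewer summits per length, and its place in the ranking was not computed. These families also differ in span and in the genes between their copies, and the differences were not tested.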

How the data were processed

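NELFA ChIP-seq of doxycycline-induced E14 cells was read from 1 deposited peak list. Per the submitters' processing notes, reads were trimmed with Trim Galore 0.4.2, aligned to mm10 with Bowtie2 2.2.9, handled with SAMtools 1.4, and peaks were called with MACS2. Settings of the call, the use of the inputs and the pooling of libraries are stated in no source used here. The authors' deposited columns hold fold enrichment as a linear ratio, the −log10 of p-value and q-value, a score equal to the whole part of 10 times the −log10 q, and the summit offset. The lowest −log10 q was 1.31. The read depth is unknown.

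Summits were assigned to RefSeq gene intervals (GRCm38.p6), with a boundary window of 1 kb. Coordinates are counted from 1. Alternatives were windows of 500 bp and 2 kb, a −log10 q of at least 4, folds at or above the median, interval overlap, extended genes and another span. Runs joined peaks under 2 kb apart. Promoters were aligned globally with free end gaps, and their base identity is given over aligned bases. No statistical test was made, since no value belongs to a single library. The rule for named genes took the 5 copies, other Tdpoz or Spopfm genes and genes with peaks in the window, a list of 24 SPOP and CUL3 genes, and the 5 strongest peaks. Members and lists were chosen with earlier results of these data known. Assignment was tested on simulated data. Python 3.11.15, numpy 2.4.6, pandas 2.3.3, Biopython 1.88 and matplotlib 3.10.9 were used.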

Additional observations from a re-analysis of the deposited data

How the results depend on the processing

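The count of copies with a boundary summit was 3 with windows of 500 bp and 2 kb and with interval overlap, and 2 when peaks under a −log10 q of 4, or under the median fold, were left out, since Tdpoz2 then had none. Summits inside the copies went from 3 to 1 under both peak limits, to 4 with interval overlap and to 5 with genes extended by 1 kb. The window's 173 summits became 107 at a −log10 q of at least 4. Its median fold of 2.41 was 2.72 under that limit, 2.5 from the first to the last copy and, chosen after seeing the data, 2.18 without the longest run. The ratio of summits per kb inside to between the copies, 0.622, fell to 0.293 at a −log10 q of at least 4 and turned to 1.61 without Tdpoz1, an alternative chosen after seeing the data. With a 2 kb window the strongest fold was 2.5 at Tdpoz2 and 4.4 at Tdpoz4, and it did not move at Tdpoz3. The longest run had 69 peaks, and 28 or 104 with a spacing of 1 or 5 kb. No replicate could be left out and no paired analysis was possible because the list has no column per library.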
